A study of Mus musculus with 15 samples.

Results

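A set of 7 genes of the periocular mesenchyme and the cranial neural crest was followed through lens development: Foxc1, Foxc2, Twist1, Prrx1, Alx1, Pdgfra and Lum. They were taken by gene symbol from the expression table, which held 14650 symbols, and 6 of the 7 had values. All 6 passed the filter on low values and were among the 14532 genes tested, while Foxc2 was not analysed here. The libraries came from wild type C57BL/6NTac mouse embryos: lenses dissected at 4 stages 2 days apart, from embryonic day E10.5 to E16.5, and whole embryos, called whole body here, with the label E10.5-12.5. Each of the 5 groups had 3 libraries, called biological replicates in the labels. Lenses were pooled for each library, 50 of them for an E10.5 library, 29 for E12.5, 18 for E14.5 and 17 for E16.5. The protocol names whole embryos of E10.5, E11.5 and E12.5, and does not state how they were shared out among the 3 libraries. No whole-body library covers E14.5 or E16.5, so at those stages lens and age cannot be told apart.

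The periocular mesenchyme is the loose tissue around the optic cup and lens. It descends from the cranial neural crest and from head mesoderm, and it forms the corneal stroma and endothelium, the iris stroma, the sclera and the drainage tissue of the eye. Foxc1 and Foxc2 are forkhead transcription factors needed in this tissue for the anterior segment of the eye. Twist1 is a basic helix-loop-helix factor of cranial mesenchyme, and Prrx1 and Alx1 are homeodomain factors of craniofacial mesenchyme. Pdgfra is a receptor for platelet-derived growth factors (PDGF), used by crest mesenchyme and also by the lens epithelium. Lum encodes lumican, a small leucine-rich proteoglycan that spaces collagen fibrils in the cornea. The lens itself comes from surface ectoderm.

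Promoter windows, 250 bases before to 50 after the RefSeq gene start on GRCm38.p6, matched 4 of the 7 genes: Foxc1, Twist1, Prrx1 and Pdgfra. The window of Twist1 is shown as that of a factor that fell at 2 successive steps, and that of Pdgfra because its transcripts differed in their start. Both are on the plus strand, Twist1 at chr12:33957421-33957720 and Pdgfra at chr5:75152001-75152300. Capitals mark matches to TATAAA in Twist1 and to CANNTG, the E-box, in Pdgfra.
Twist1: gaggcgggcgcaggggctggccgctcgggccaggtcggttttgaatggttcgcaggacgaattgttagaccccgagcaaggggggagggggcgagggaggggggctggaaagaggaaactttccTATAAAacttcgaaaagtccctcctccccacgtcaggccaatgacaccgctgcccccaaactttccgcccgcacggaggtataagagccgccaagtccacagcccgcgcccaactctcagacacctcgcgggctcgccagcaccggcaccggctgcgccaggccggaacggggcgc
Pdgfra: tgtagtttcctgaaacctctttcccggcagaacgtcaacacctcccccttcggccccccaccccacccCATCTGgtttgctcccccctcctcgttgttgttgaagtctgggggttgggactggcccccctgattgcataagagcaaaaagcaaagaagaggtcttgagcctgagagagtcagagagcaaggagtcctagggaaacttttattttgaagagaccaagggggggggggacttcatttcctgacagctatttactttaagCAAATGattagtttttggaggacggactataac
With the first base of the gene counted as 0, the TATAAA of Twist1 covers bases -126 to -121. In Pdgfra, CATCTG covers bases -182 to -177 and CAAATG bases 17 to 22. Searched on both strands, TATAAA was in 13.6% and CANNTG in 72.3% of all 32851 windows of 300 bases. The forkhead site TGTTTAC (3.65% of windows) and the dimer site of paired homeodomain factors (0.487%) had no match in the 4 windows. The GC content was 67.3% in the window of Foxc1, 66.0% in that of Twist1, 51.0% in that of Pdgfra and 47.7% in that of Prrx1, against a median of 52.7% over all windows.

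Values are FPKM, fragment numbers scaled for library size and transcript length, and the read depth behind them is not given in the sources used here. Log2 fold changes are differences of log2(FPKM + 1) with their SE, which understates the change of genes with low values, and a call means a limma p under 0.05 after Benjamini-Hochberg adjustment over all genes tested. The p-values measure the spread between pools. In bulk tissue, fewer cells of a type and less RNA per cell cannot be told apart. The lens libraries carried lens markers: Foxe3, a factor of the lens epithelium, was at 269.01 to 570 FPKM in the 12 lens libraries and at 0.27 to 0.48 in whole body. They also carried markers of other cells. The summed FPKM of 11 macrophage genes was 130.9 to 167.6 at E10.5, 101.1 to 203.2 at E12.5, 6.4 to 17.2 at E14.5 and 6.7 to 17.9 at E16.5, against 40.6 to 45.8 in whole body. That of 10 endothelial genes was 568.5 to 638.2, 277.9 to 536.7, 88.8 to 162.5 and 102.7 to 165.8 at the same stages, against 311.8 to 318.2. The 8 erythroid genes summed to 2066 to 4767.2 FPKM at E10.5, 2854.3 to 6616.5 at E12.5, 62.7 to 174 at E14.5 and 8.6 to 19.3 at E16.5. The 8 genes of pigment cells and the optic cup summed to 127 to 250.5 at E10.5 and 61.9 to 195.7 at E12.5, and to at most 50.8 later, against 27.4 to 28 in whole body. No gene of these 4 lists was at 0 in all libraries of a group. These sums, like 5 of the 6 mesenchyme genes, were lower at E14.5 and E16.5 than at the earlier stages, and their part in the results was not tested. In the 6 mesenchyme genes, a pair of lens libraries stood apart from the others of their stage. These were E10.5 replicate 3, in Lum and also in fibrillar collagens, and E12.5 replicate 1, in 5 of the 6. Other libraries stood apart in other lists. E10.5 replicate 1 had an erythroid sum of 4767.2 FPKM beside 2178 and 2066. E12.5 replicate 2 had a sum of 71 over 9 surface ectoderm genes, beside 19.2 and 20.4.

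The 4 transcription factors were present in E10.5 lens libraries, lower at E12.5 and near the bottom of the scale at E14.5 and E16.5. Lum was at 14.33, 9.65 and 62.41 FPKM in the E10.5 libraries, at 26.77 to 88.25 at E12.5 and under 1.5 FPKM afterwards. Pdgfra took another course: it was above 100 FPKM in every library and higher at the last 2 stages. Each of the 6 varied over the 4 lens stages in limma's moderated F test, with adjusted p from 1.87e-08 for Prrx1 to 2.57e-06 for Pdgfra. As background, 77.3% of all genes tested varied.

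**Figure D1:**
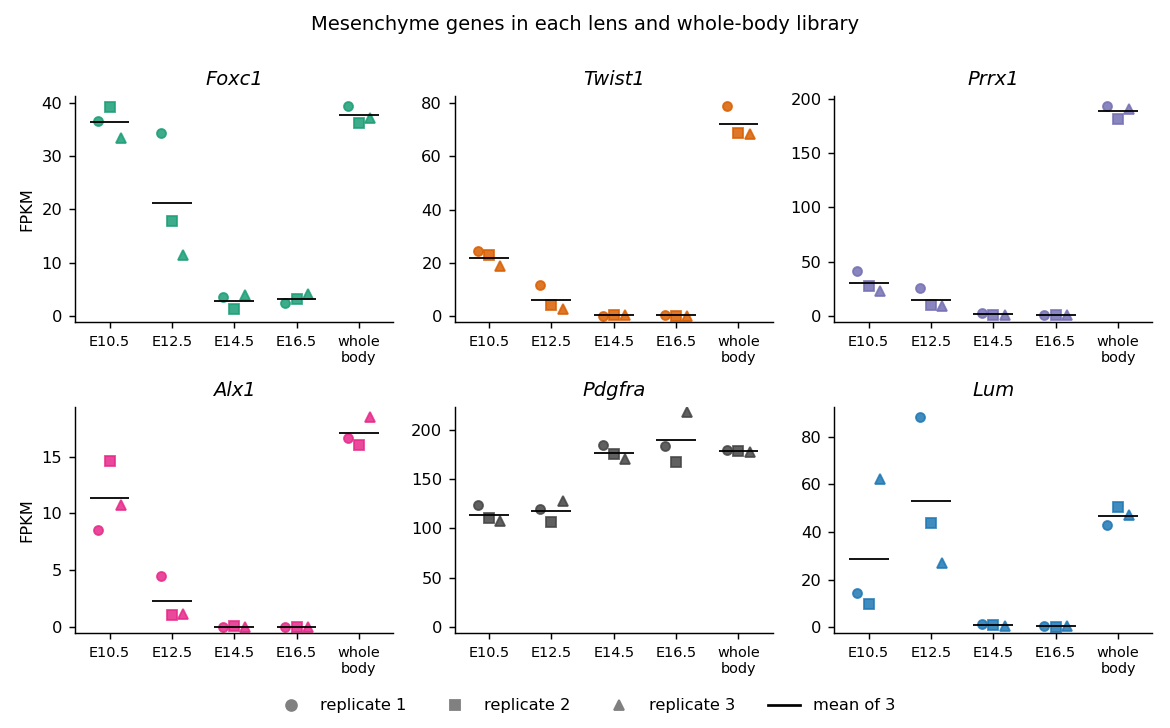
FPKM (y axis) of the 6 genes in the 3 libraries of each lens stage and of whole body (x axis); marker shapes give the replicate and black lines the mean of 3. Foxc1, Twist1, Prrx1, Alx1 and Lum sit near 0 at E14.5 and E16.5, while Pdgfra lies between 106.72 and 218.01 FPKM in the lens.

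Foxc1 (chromosome 13, 31806633 to 31812476, plus strand in mm10, GENCODE vM21) has a single exon and 1 transcript in the table. It stood at 36.59, 39.13 and 33.34 FPKM in the E10.5 libraries, at 34.29, 17.72 and 11.43 at E12.5, at 3.49, 1.21 and 3.92 at E14.5, at 2.32, 3.15 and 4.1 at E16.5, and at 39.43, 36.25 and 37.17 in whole body. The ranges at E10.5 and in whole body overlapped, E12.5 replicate 1 lay within the E10.5 range with the other 2 E12.5 libraries below it, and the late libraries were all under 5 FPKM. The E10.5 mean of 36.4 ± 2.90 FPKM (SD, n = 3) was 96.6% of the whole-body mean of 37.6 ± 1.64, and the log2 difference of -0.05 ± 0.33 was not called (limma adjusted p = 0.912, 95% interval -0.75 to 0.65). At E12.5 Foxc1 was lower than in whole body by a log2 fold change of -0.94 ± 0.33 (adjusted p = 0.0201), and lower than at E10.5 by -0.89 ± 0.33 (adjusted p = 0.0331). Both of these calls were weak. The first was lost without E12.5 replicate 2 (-0.88, adjusted p = 0.0554), E12.5 replicate 3 (-0.59, 0.116) or whole-body replicate 1 (-0.90, 0.0554), and the second without any one E10.5 library (adjusted p = 0.0511 to 0.0852) and without E12.5 replicate 2 (0.0832) or 3 (0.176). From E12.5 to E14.5 Foxc1 fell by 2.46 ± 0.33 on the log2 scale (adjusted p = 3.77e-05). Its late means, 7.64% of the whole-body mean at E14.5 and 8.48% at E16.5, were the highest such shares among the 4 factors.

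Twist1 (chromosome 12, 33957671 to 33959829, plus strand) has 2 exons and 1 transcript in the table. Its FPKM was 24.27, 22.76 and 18.69 at E10.5, 11.43, 4.24 and 2.46 at E12.5, 0, 0.37 and 0.17 at E14.5, 0.32, 0.11 and 0.11 at E16.5, and 78.98, 69.02 and 68.36 in whole body. Every lens library lay below every whole-body library, and the E10.5, E12.5 and later ranges did not overlap. At E10.5 it reached 30.4% of the whole-body mean, a log2 fold change of -1.68 ± 0.32 (adjusted p = 0.000475). It then fell by 1.90 ± 0.32 to E12.5 (adjusted p = 0.000174) and by a further 2.38 ± 0.32 to E14.5 (adjusted p = 4.49e-05). In both late groups the mean was 0.25% of the whole-body mean.

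Prrx1 (chromosome 1, 163245119 to 163313710, minus strand) is summed over 6 transcripts. It was at 40.98, 27.63 and 23.19 FPKM at E10.5, at 25.27, 10.18 and 8.75 at E12.5, at 2.17, 0.75 and 0.85 at E14.5, at 0.64, 0.34 and 0.6 at E16.5, and at 193.38, 181.84 and 190.65 in whole body. It was the most abundant of the 4 factors in whole body, and all lens libraries lay far below that level, although the E10.5 and E12.5 ranges overlapped through E12.5 replicate 1. The log2 fold change to whole body was -2.62 ± 0.32 at E10.5 (adjusted p = 6.37e-06) and -3.74 ± 0.32 at E12.5 (adjusted p = 8.73e-08), and E10.5 lenses held 16.2% of the whole-body mean. The fall from E10.5 to E12.5, a log2 fold change of -1.11 ± 0.32, passed the test (adjusted p = 0.00848) but not when only the libraries of those 2 stages were fitted (adjusted p = 0.0684). From E12.5 to E14.5 Prrx1 fell by 2.71 ± 0.32 (adjusted p = 1.38e-05).

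The makeup of the Prrx1 sum differed in part between lens and whole body, a comparison made after the values were seen and given without a test. The reference transcript of 4952 bases made up 45.12%, 50.02% and 51.01% of it at E10.5 and 52.66%, 51.85% and 49.47% in whole body. These ranges overlapped. An assembled form of 4010 bases, not in the reference annotation, made up 8.35%, 4.16% and 13.24% at E10.5 and 23.6%, 24.25% and 24.69% in whole body, with no overlap. A second assembled form, of 7589 bases, was at 17.4 ± 3.27 FPKM in whole body and listed at 0 in all 3 E10.5 libraries. The other 3 forms had higher shares at E10.5 than in whole body, also with no overlap. The reference transcript of 6527 bases made up 15.86% to 21.72% at E10.5 and 5.38% to 7.46% in whole body, and that of 1335 bases 12.07% to 21.18% and 6.44% to 7.76%. The other assembled form, of 8947 bases, made up 6.12% to 9.49% and 1.21% to 2.65%. Shares within a gene depend on each other, since a lower share of some forms raises that of others. In FPKM none of these 3 forms had a higher mean at E10.5. The form of 6527 bases was at 5.52 and 12.5 in whole body, that of 1335 bases at 5.47 and 13.1. That of 8947 bases was at 2.35 and 3.23. How often shares do not overlap over all transcripts was not counted. The division of reads among transcripts of 1 gene is an estimate by the authors' assembly.

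Alx1 (chromosome 10, 102998707 to 103030215, minus strand) had 3 transcripts in the table. One of them, of 3713 bases, was marked as overlapping on the opposite strand and was left out of the sum. The sum was at 8.56, 14.66 and 10.77 FPKM at E10.5, at 4.51, 1.09 and 1.16 at E12.5, at 0, 0.09 and 0 at E14.5, at 0 in all 3 E16.5 libraries, and at 16.65, 16.07 and 18.47 in whole body. The E10.5 libraries lay below whole body without overlap, the E12.5 libraries below those of E10.5, and at E16.5 Alx1 was listed at 0. At E10.5 it had 66.4% of the whole-body mean, a log2 difference of -0.58 ± 0.29 that was not called (adjusted p = 0.105, 95% interval -1.2 to 0.04). That difference passed when only the libraries of the compared groups were fitted (adjusted p = 0.0288). Alx1 fell by 2.05 ± 0.29 from E10.5 to E12.5 (adjusted p = 3.31e-05) and by 1.5 ± 0.29 from E12.5 to E14.5 (adjusted p = 0.000753).

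The opposite-strand transcript at Alx1 stood at 2.67, 5.8 and 3.2 FPKM at E10.5, at 0.39, 0.61 and 0.14 at E12.5 and at 3.5, 2.44 and 3.4 in whole body. It was highest in E10.5 replicate 2, which among the lens libraries was also the highest for Alx1 itself. Whether counting used strand is not given in the sources used here, so reads of the 2 strands cannot be told apart.

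Pdgfra (chromosome 5, 75152292 to 75198215, plus strand) is summed over 7 transcripts. Its FPKM was 123.53, 111.06 and 107.64 at E10.5, 119.43, 106.72 and 127.74 at E12.5, 185.26, 175.15 and 170.58 at E14.5, 183.41, 167.03 and 218.01 at E16.5, and 179.43, 178.2 and 177.8 in whole body. The 6 early lens libraries overlapped each other and lay below the 6 late ones, which spanned the whole-body range. Pdgfra was lower than in whole body at E10.5 by a log2 fold change of -0.64 ± 0.09 (adjusted p = 2.72e-05) and at E12.5 by -0.60 ± 0.09 (adjusted p = 3.44e-05). From E12.5 to E14.5 it rose by 0.58 ± 0.09 on the log2 scale (adjusted p = 0.000133), in the opposite direction to the other 5 genes. Against whole body it was not called at E14.5 (-0.01, adjusted p = 0.903, 95% interval -0.21 to 0.18) or at E16.5 (0.08, adjusted p = 0.442, -0.12 to 0.27).

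The late comparison of Pdgfra with whole body depended on the scaling. With crystallins left out and library totals made equal, which moved the median log2 fold change of all genes by -0.40 at E14.5 and -0.48 at E16.5, Pdgfra had a log2 fold change of -0.45 to whole body at both stages (adjusted p = 0.000838 and 0.000876). With quantile normalization, which moved that median by 0.11 and 0.08, it was also called lower, at -0.42 and -0.41 (adjusted p = 0.00144 and 0.00156). The rise from E12.5 to E14.5 kept its direction and its call under both, at 0.34 (adjusted p = 0.0129) and 0.36 (adjusted p = 0.00882). With reference transcripts alone it was 0.64 and not called (adjusted p = 0.0566). The difference between E16.5 and E10.5, 0.72 ± 0.09 (adjusted p = 3.85e-06), was then 0.35 and not called either (adjusted p = 0.224).

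The transcript starts of Pdgfra separated lens from whole body, a comparison chosen after the values were seen. Of the 7 transcripts, 3 share the upstream reference start at 75152306, and the printed promoter window of Pdgfra ends just before it. The other 4 have other starts, and the other long reference transcript, of 6834 bases, starts 3593 bases downstream. Transcripts from the upstream start made up 43.19%, 5.77% and 39.71% of Pdgfra FPKM at E10.5, 19.37%, 23.28% and 27.74% at E12.5, 48.38%, 20.56% and 39.45% at E14.5, 11.43%, 45.49% and 17.82% at E16.5, and 80.76%, 81.76% and 71.4% in whole body. All 12 lens libraries lay below all 3 whole-body libraries, with wide spread within stages. At E10.5 the shares of 43.19%, 5.77% and 39.71% came with gene sums of 123.53, 111.06 and 107.64 FPKM. As for Prrx1, the division of reads among transcripts is an estimate by the authors' assembly. The 12 lens libraries are 4 stages and not replicates of 1 condition, so these shares are given without a test.

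**Figure D2:**
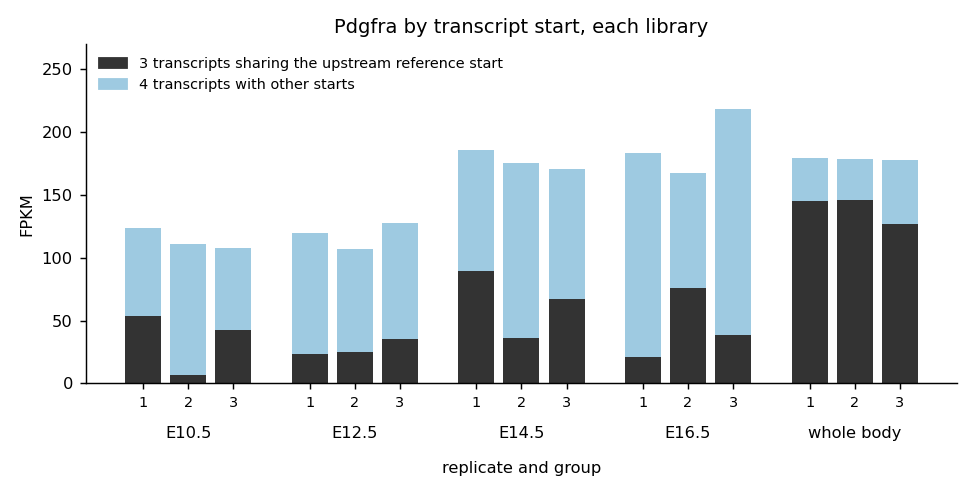
Pdgfra FPKM (y axis) in each library (x axis: replicate and group), split into the 3 transcripts that share the upstream reference start (dark) and the 4 with other starts (light). The dark part is 126.95 to 145.69 FPKM in whole body and 6.41 to 89.62 in the lens, where the light part is the larger in every library.

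In FPKM, transcripts from other starts were at 64.9 to 179.16 in the lens libraries (median 95.97) and at 32.51 to 50.85 in whole body. Those from the upstream start were at 6.41 to 89.62 (median 37.43) and at 126.95 to 145.69. Neither pair of ranges overlapped. When limma was fitted to all 48306 transcripts, the downstream reference transcript of Pdgfra was higher in lens than in whole body at each stage, by 1.18 ± 0.23 at E10.5 (adjusted p = 0.00204) up to 1.46 ± 0.23 at E16.5 (adjusted p = 0.000174). As background, 13%, 15.4%, 19.3% and 21.5% of transcripts were called higher at the 4 stages. Not every transcript followed its start. Of the assembled forms with other starts, that of 6563 bases was higher at each stage and that of 7161 bases was never called. That of 6674 bases was called only at E16.5 (1.47 ± 0.5). Of those with the upstream start, that of 2876 bases was called higher at E12.5 (0.96 ± 0.29), E14.5 (1.36 ± 0.29) and E16.5 (1.45 ± 0.29). Its mean was 0.77 FPKM in whole body and 3.86 at E16.5. That of 1561 bases was never called. The upstream reference transcript, of 6549 bases, was called lower at E10.5 (-2.92 ± 0.87, adjusted p = 0.0259) and E12.5 (-2.53 ± 0.87, adjusted p = 0.0439), where 13.6% and 15.2% of transcripts were, but not at E14.5 (-1.28, adjusted p = 0.278) or E16.5 (-1.99, adjusted p = 0.0836), where 20.3% and 22.1% were.

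Lum (chromosome 10, 97565128 to 97572703, plus strand) has 3 exons and 1 transcript in the table. It stood at 14.33, 9.65 and 62.41 FPKM at E10.5, at 88.25, 43.63 and 26.77 at E12.5, at 1.2, 0.93 and 0.26 at E14.5, at 0.32, 0 and 0.53 at E16.5, and at 43.12, 50.58 and 46.95 in whole body. Replicates disagreed more than for the other genes: E10.5 replicate 3 lay above the whole-body range and its 2 companions far below it. The E12.5 libraries ranged on both sides of whole body, and the late ones did not overlap with any earlier library. Lum was not called against whole body at E10.5 (-1.13 ± 0.52, adjusted p = 0.08) or at E12.5 (0.01 ± 0.52, adjusted p = 0.993, 95% interval -1.11 to 1.13). Without E10.5 replicate 3 the E10.5 difference was -1.90 and called (adjusted p = 0.000907). The difference between E12.5 and E10.5, 1.14 ± 0.52 and not called (adjusted p = 0.078), was called without E10.5 replicate 3 (1.91, adjusted p = 0.000965) or without E12.5 replicate 3 (1.53, adjusted p = 0.0341). From E12.5 to E14.5 Lum fell by 4.78 ± 0.52 (adjusted p = 7.03e-06), the largest estimate at that step among the 6 genes. On the log2(FPKM + 1) scale a fall cannot exceed the starting level, so this rank depends on that level. The E12.5 means were 52.9 FPKM for Lum, 6.04 for Twist1 and 2.25 for Alx1.

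Against whole body, 3 of the 6 genes were called lower at E10.5 (Twist1, Prrx1 and Pdgfra) and none higher, while 31.2% of all genes tested were lower. Without E10.5 replicate 3 and E12.5 replicate 1, Alx1 and Lum were called too, 5 in all. The median log2 fold change of the 6 was -0.89, against -0.04 over all genes. At E12.5, 5 of 6 were lower (37.1% of all genes), at E14.5, 5 of 6 (42.6%), and at E16.5, 5 of 6 (43.4%). The gene not called was Lum at E12.5 and Pdgfra at the later stages. The medians of the 6 were -1.78, -4.45 and -4.71, against -0.04, -0.10 and -0.11 over all genes. These comparisons share the same whole-body libraries. At E14.5 the log2 fold changes were -6.45 ± 0.32 for Prrx1 (adjusted p = 1.12e-10), -5.96 ± 0.32 for Twist1 (2.98e-10), -4.77 ± 0.52 for Lum (7.37e-07), -4.13 ± 0.29 for Alx1 (4.92e-09) and -3.40 ± 0.33 for Foxc1 (1.85e-07).

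**Figure D3:**
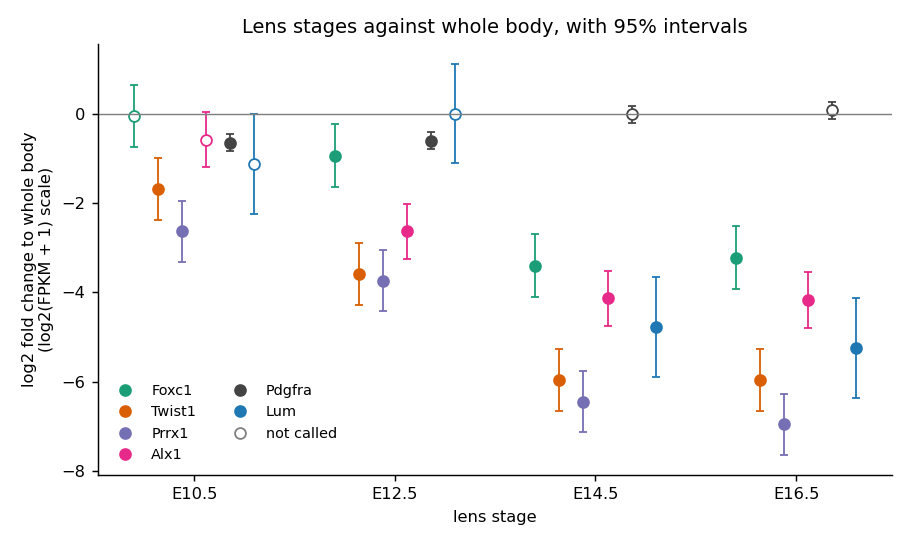
Log2 fold change to whole body (y axis, log2(FPKM + 1) scale) of the 6 genes at each lens stage (x axis), with 95% intervals; filled points were called and open points were not. Pdgfra lies at -0.64 at E10.5 and at 0.08 at E16.5, while Prrx1 moves from -2.62 to -6.96.

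Between successive stages, 4 of 6 genes fell from E10.5 to E12.5 (26% of all genes tested fell): Foxc1, Twist1, Prrx1 and Alx1. With only the libraries of those stages in the fit, 2 were called, Twist1 and Alx1. From E12.5 to E14.5, 5 of 6 fell (22.4% of all genes) and 1, Pdgfra, rose (21.2%). From E14.5 to E16.5 limma called none of the 6, and none had an unadjusted p under 0.05, while 10% of all genes tested were called in either direction. Over the whole course from E10.5 to E16.5, 5 of 6 fell (36.7% of all genes) and Pdgfra rose (37.2%). The log2 fold changes were -4.34 ± 0.32 for Prrx1 (adjusted p = 1.15e-08), -4.28 ± 0.32 for Twist1 (1.53e-08), -4.11 ± 0.52 for Lum (4.43e-06) and -3.18 ± 0.33 for Foxc1 (4.79e-07), and Alx1 reached 0 in all E16.5 libraries.

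The proportions of the factors differed between the groups. The ratio of Foxc1 to Twist1 FPKM was 0.5, 0.53 and 0.54 in whole body, 1.51, 1.72 and 1.78 at E10.5, and 3, 4.18 and 4.65 at E12.5. The 3 ranges did not overlap. The ratio of Foxc1 to Prrx1 was 0.19 to 0.2 in whole body, 0.89 to 1.44 at E10.5 and 1.31 to 1.74 at E12.5. Here the 2 lens stages overlapped. These ratios compare levels per length and were not tested.

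At E12.5 replicate 1 stood apart, which was noticed in the values. It was above the mean of the other 2 libraries 2.35-fold for Foxc1, 3.41-fold for Twist1, 2.67-fold for Prrx1, 4.01-fold for Alx1 and 2.51-fold for Lum, but 1.02-fold for Pdgfra. Of all genes tested, 2.42% were at least 2-fold higher there on FPKM + 1, against 5 of these 6. The same held for 7 of 8 genes of pigment cells and the optic cup, 5 of 8 erythroid genes, 9 of 19 stromal matrix genes and 3 of 10 endothelial genes. It held for 7 of 31 other crest and mesenchyme factors, whose median ratio was 1.031, and the 10 lens genes had a median ratio of 0.695. At least 2-fold lower there were 5 of 9 surface ectoderm genes, against 119 of the 14532 genes tested. For these genes E12.5 replicate 2 raised the mean used for comparison. The 9 summed to 19.2 FPKM in replicate 1, 71 in replicate 2 and 20.4 in replicate 3. The part of other tissue in E12.5 replicate 1 was not tested. At E10.5 replicate 3 stood apart in another way. Lum was 5.21-fold above the other 2 libraries and Col1a1, a chain of fibrillar collagen, was at 1272.81 FPKM beside 13.28 and 10.79, while the other 5 genes had ratios of 0.68 to 0.93. In that library 12 of 19 stromal matrix genes, but 0 of 31 other crest and mesenchyme factors and 0.922% of all genes, were at least 2-fold higher.

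**Figure D4:**
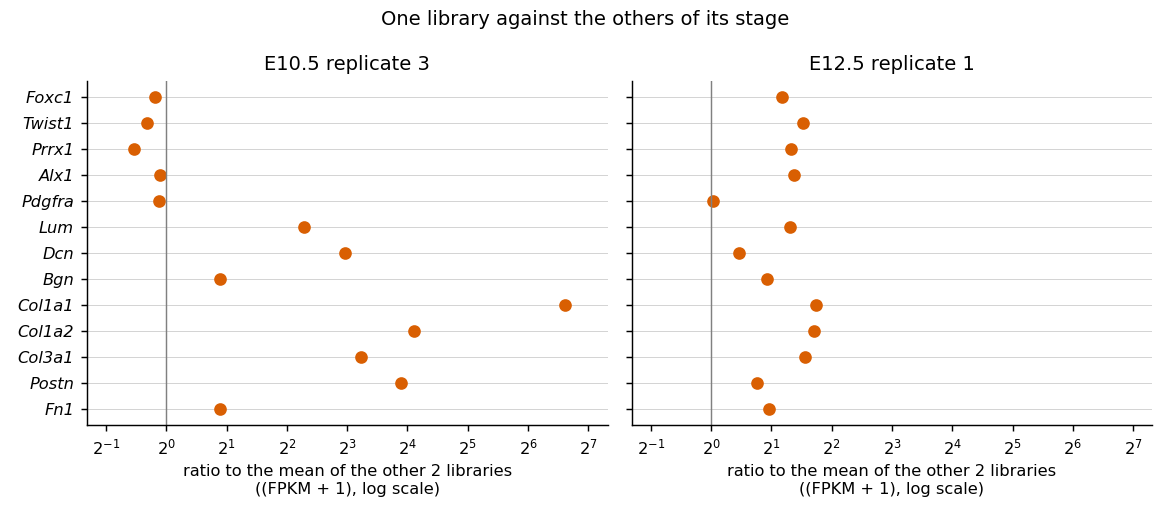
Ratio of 1 library to the mean of the other 2 of its stage (x axis, FPKM + 1, log scale) for the 6 genes and 7 matrix genes (y axis). In E10.5 replicate 3 only Lum of the 6 lies to the right of 2, in E12.5 replicate 1 all but Pdgfra do.

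The wider list of crest and mesenchyme transcription factors without the 7 genes had 31 of 32 members tested. At E10.5, 24 were lower than in whole body, 2 higher and 5 not called, with a median log2 fold change of -1.07. At E16.5, 28 were lower, 2 higher and 1 not called, with a median of -3.46. Of all genes tested, 31.2% were lower and 24.6% higher at E10.5, and 43.4% lower and 36.8% higher at E16.5. Among the higher ones at E10.5 was Tfap2a, an AP-2 factor of crest and surface ectoderm, at 1.98 ± 0.13 (adjusted p = 1.02e-08). The higher ones at E16.5 were Tfap2a (0.91 ± 0.13) and Zeb2, a zinc finger factor (0.84 ± 0.08). Sox10, a factor of migrating crest, was among the lowest at E10.5 (-3.93 ± 0.57), at 0.06 to 0.33 FPKM against 15.75 to 17.48.

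Between stages genes of this list moved in both directions. From E10.5 to E12.5, 14 of the 31 fell and 4 rose, while 26% and 29.5% of all genes did. From E12.5 to E14.5, 16 fell and 1 rose, while 22.4% and 21.2% of all genes did. With crystallins left out the counts at that step were 17 and 0. Tfap2b was at 19.5, 17.44 and 14.41 FPKM at E10.5 and at 98.94, 40.88 and 31.1 at E12.5. It rose by 1.51 ± 0.32 over that step (adjusted p = 0.00105) and then fell by 4.56 ± 0.32 to E14.5 (adjusted p = 1.28e-07), with E12.5 replicate 1 again the highest library.

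Of the PDGF pathway genes other than Pdgfra, 12 of 13 were tested. Against whole body, 1 was higher and 6 lower at E10.5, while 24.6% and 31.2% of all genes tested were. At E16.5, 3 were higher and 7 lower, while 36.8% and 43.4% of all genes were. With quantile normalization the E10.5 counts were 3 and 7, and with crystallins left out the E16.5 counts were 1 and 10. Pdgfa encodes a ligand of this receptor. It was at 19.8, 18.8 and 18.85 FPKM at E10.5, at 5.82, 6.63 and 6.17 at E12.5, at 2.15, 6.77 and 5.24 at E14.5, at 12.95, 11.95 and 10.36 at E16.5, and at 11.58 to 16.55 in whole body. It fell by 1.48 ± 0.25 from E10.5 to E12.5 (adjusted p = 0.000135) and rose by 1.25 ± 0.25 from E14.5 to E16.5 (adjusted p = 0.00492), a step at which none of the 6 mesenchyme genes was called. Pdgfc, another ligand of the receptor, was at 26.24, 32.04 and 33.32 FPKM at E10.5 and at 0.24, 0.28 and 0.78 at E14.5, against 51.44 to 57.33 in whole body. At E14.5 its log2 fold change to whole body was -5.27 ± 0.24 (adjusted p = 4.37e-11).

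Pdgfrb, the partner receptor that is typical of pericytes and mesenchyme, was at 33.93, 32.07 and 38.28 FPKM at E10.5, at 93.14, 48.81 and 34.22 at E12.5, at 10, 4.64 and 5.75 at E14.5, and at 88.58 to 91.56 in whole body. It fell by 2.87 ± 0.31 from E12.5 to E14.5 (adjusted p = 5.99e-06), over the step at which Pdgfra rose, and E12.5 replicate 1 was its highest lens library. The 6 pericyte genes summed to 125.6 to 165.1 FPKM at E10.5, 124.6 to 191.9 at E12.5, 82.3 to 116.1 at E14.5 and 102.1 to 149.8 at E16.5. In whole body they summed to 172.9 to 185.6. Most of each sum was 1 gene, Notch3, at 98.5 to 135.1 FPKM at E10.5, 60.86 to 79.46 at E14.5 and 136.92 to 143.52 in whole body. Within these sums genes moved in both directions. From E10.5 to E16.5, 2 were called higher and 3 lower, while 37.2% and 36.7% of all genes tested were. Rgs5 rose by 4.22 ± 0.32 and Cspg4 by 1.21 ± 0.33, while Anpep fell by 2.02 ± 0.25 and Abcc9 by 1.26 ± 0.34. The part of pericytes was not tested. Shc1, an adaptor that couples receptor kinases to Ras, was at 89.85 to 94.42 FPKM at E10.5 and 591.58 to 778.75 at E16.5, a rise of 2.88 ± 0.09 (adjusted p = 1.15e-12).

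Of the small leucine-rich proteoglycans other than Lum, 4 of 11 were tested: Dcn, Bgn, Fmod and Ogn. Against whole body all 4 were lower at E10.5, where 31.2% of all genes tested were. Ogn, osteoglycin, was high at the stages where Lum was lowest. It was at 0.18, 0.24 and 0.28 FPKM at E10.5, at 51.32, 58.17 and 101.35 at E12.5, at 218.39, 267.2 and 194.5 at E14.5, at 257.43, 296.55 and 256.3 at E16.5, and at 4.68 to 5.67 in whole body. The 3 early ranges did not overlap, and the last 2 did. Ogn rose by 5.79 ± 0.19 from E10.5 to E12.5 (adjusted p = 9.45e-12) and by 1.73 ± 0.19 to E14.5 (adjusted p = 7.27e-06). Decorin (Dcn) was at 0.92, 0.28 and 11.45 FPKM at E10.5, at 15.94, 15.31 and 7.23 at E12.5 and at most 0.72 later. Like Lum, it was highest at E10.5 in replicate 3, and it fell by 3.07 ± 0.58 from E12.5 to E14.5 (adjusted p = 0.000682).

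**Figure D5:**
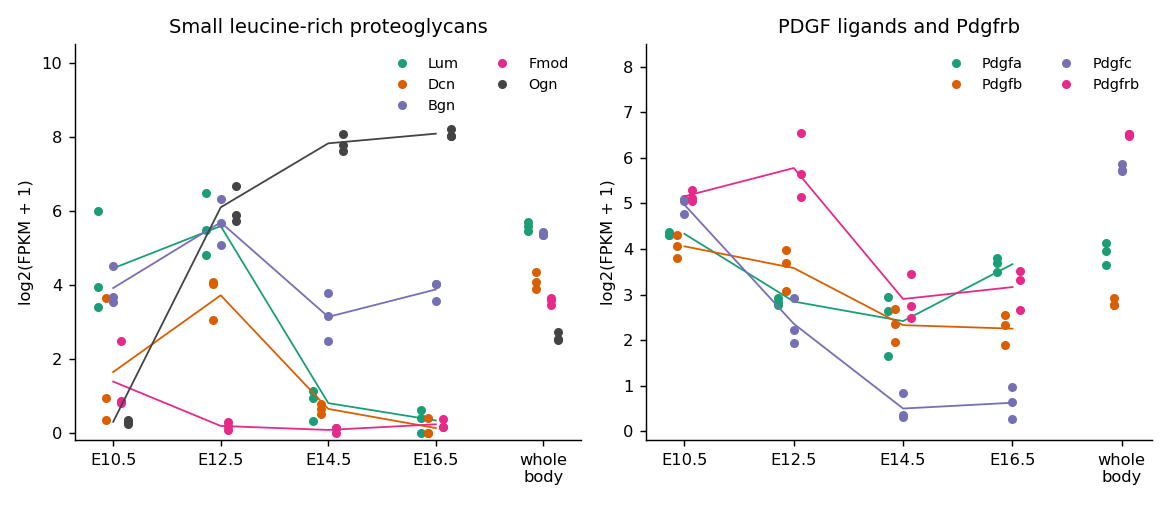
Log2(FPKM + 1) (y axis) of Lum with 4 other small leucine-rich proteoglycans (left) and of PDGF ligands with Pdgfrb (right) at each lens stage and in whole body (x axis). Points are libraries and lines join the means of the lens stages. Ogn climbs from at most 0.28 FPKM at E10.5 to at least 256.3 at E16.5, while Lum ends at 0 to 0.53.

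Of 19 stromal matrix genes tested, 11 were lower than in whole body at E10.5 and 16 at E14.5, with 3 and 2 higher. Without E10.5 replicate 3 and E12.5 replicate 1 the first count was 16. Of all genes tested, 31.2% were lower and 24.6% higher at E10.5, and 42.6% lower and 35.7% higher at E14.5. Vcan, a large proteoglycan of loose mesenchyme, was at 154.35, 219.45 and 328.5 FPKM at E10.5 and at 2.65, 2.04 and 1.16 at E14.5, against 349.98 to 369.92 in whole body, with -6.98 ± 0.45 as the log2 fold change at E14.5 (adjusted p = 1.78e-09). Sparc, a collagen-binding glycoprotein also made by the lens, was at 366.26 to 515.67 FPKM at E10.5 and 2206.35 to 2431 at E16.5. It rose by 2.45 ± 0.13 (adjusted p = 3.22e-10).

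For each gene, the 3 tested genes with the most similar course over the 12 lens libraries were found by the root mean square difference of log2(FPKM + 1), each gene centred on its own mean. For Foxc1 they were Tagln2 (0.284), Bcl11a (0.285) and Tgfbr2 (0.293), where the median over all genes was 1.51. For Twist1 they were Tbx5 (0.28), Tmem132c (0.281) and St6gal1 (0.29), and for Prrx1 Tmem255a (0.303), Adam19 (0.315) and Cx3cr1 (0.34), the last a macrophage marker. For Alx1 they were Foxd1 (0.238), Elovl2 (0.26) and Zfp462 (0.262). For Pdgfra, whose own SD over the libraries was only 0.345, they were Zfp382 (0.117), Arid5b (0.126) and Cyb561a3 (0.132), with a median over all genes of 0.48. For Lum, whose own SD was 2.366, they were Col3a1 (0.57), Col1a2 (0.693) and Tfap2b (0.71), with a median over all genes of 2.366. The measure depends on a gene's own SD, so its size is not compared between genes. Col3a1 and Col1a2 shared with Lum the high value in E10.5 replicate 3, at 691.09 FPKM beside 72.78 and 73.19 and at 580.31 beside 26.28 and 38.98. The measure was taken over the same 12 libraries for all genes, so 1 library that stands apart weighs on it.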

How the data were processed

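Whole-transcriptome RNA-seq of 15 libraries was analysed. The authors deposited FPKM values per assembled transcript; the submitters' processing notes name Trimmomatic, TopHat2 2.0.9, Cufflinks and Cuffnorm on build mm10, and the order of steps, strand setting and read depth are not given in the sources used here. Every one of the 48306 transcripts reached 1 FPKM in at least 2 libraries. FPKM sums per library ran from 707562 to 1629915. These sums are not read depth, so no precision from depth can be given.

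For each gene symbol the FPKM of its transcripts was added up, without the 172 marked as overlapping on the opposite strand. The filter asked for 1 FPKM in 3 or more libraries and removed 80 genes, and 3 more were left out as failed estimates, at 0 beside a replicate of at least 50 FPKM. Contrasts were tested on log2(FPKM + 1) by limma (3.58.1, R 4.3.3), with all 15 libraries in 1 fit with 1 mean per group (10 residual degrees of freedom), eBayes with a trended prior, and Benjamini-Hochberg adjustment over the 14532 genes tested. The 95% intervals are unadjusted. Coordinates are from GENCODE vM21. The fit was checked on simulated data. Tables and figures used Python 3.11.15, pandas 2.3.3, scipy 1.17.1 and matplotlib 3.10.9.

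The genes followed and the lists were chosen with earlier results of these data known. The text names these genes, the 3 tested genes most like each over the lens libraries, and from each list up to 2 called genes at either end of each comparison, and some of these results are not reported here. Foxe3 serves as a lens reference, and Notch3 is named because it made up most of the pericyte sums. Same-numbered libraries of different groups correlated in their deviations with r from -0.0946 to 0.2373 over 30 pairs, 4 of them over 0.1, so the numbers were not taken to pair libraries. Alternatives were a pseudocount of 0.1, no filter, crystallins left out, quantile normalization, a replicate block, only the compared groups, no trend, a 2-fold minimum, reference transcripts alone, and leaving out libraries. The fit of all transcripts, the comparison of Pdgfra starts and the description of single libraries were chosen after seeing the data.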

Additional observations from a re-analysis of the deposited data

Results flagged for a closer look

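Each lens stage was set against the same whole-body libraries, so the change of a gene's lens-to-body difference from one stage to the next equals its stage-to-stage contrast, tested with limma in the fit of all libraries. From E10.5 to E12.5 that difference changed for Foxc1 (-0.89), Twist1 (-1.90), Prrx1 (-1.11) and Alx1 (-2.05), in log2 units. From E12.5 to E14.5 it changed for Foxc1 (-2.46), Twist1 (-2.38), Prrx1 (-2.71), Alx1 (-1.50) and Lum (-4.78), and in the other direction for Pdgfra (0.58).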

How the results depend on the processing

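Of the 9 counts of called genes, 3 moved by more than 1.5 times under an alternative: E12.5 against E10.5 gave 2 rather than 4 when only the compared groups were fitted, E12.5 against whole body gave 3 rather than 5 with a 2-fold minimum, and E10.5 against whole body gave 5 rather than 3 without both E10.5 replicate 3 and E12.5 replicate 1. Leaving out 1 library gave 3 to 4 called at E10.5 against whole body, 4 to 5 at E12.5 against whole body and 3 to 4 at E12.5 against E10.5, and did not move the other counts. With the replicate number as a block, the counts were 3, 5, 5 and 5 against whole body in stage order and 4, 6 and 0 for successive stages, as without the block. The shares of all genes called that are printed above belong to the main fit. Those under the alternatives are not reported here. Counts under an alternative, of these genes or of the lists, therefore have no background beside them. Of 768 single-gene results under alternatives, 718 kept direction and side of the threshold, 20 turned direction, 20 lost a call and 10 gained one. With crystallins left out, Lum at E12.5 against whole body was -0.18, Pdgfra at E16.5 against whole body -0.45 and Pdgfra at E12.5 against E10.5 -0.10. With quantile normalization the last 2 were -0.41 and -0.06, and with reference transcripts alone -0.81 and -0.05, and Pdgfra at E16.5 against E14.5 was -0.24. Without both libraries named above, Foxc1 at E10.5 against whole body was 0.01 and Lum at E12.5 against whole body -0.44. Leaving out 1 library at a time also turned differences that were not called in any such fit. Foxc1 at E10.5 against whole body ranged from -0.10 to 0.01, Lum at E12.5 against whole body from -0.44 to 0.40, and Pdgfra at E14.5 and E16.5 against whole body from -0.05 to 0.01 and from -0.03 to 0.16. Pdgfra at E12.5 against E10.5 ranged from -0.01 to 0.12 and, at E16.5 against E14.5, from -0.02 to 0.18. Foxc1 and Twist1 at E16.5 against E14.5 ranged from -0.19 to 0.39 and from -0.11 to 0.12. The cause of these shifts was not tested. Depth is not given, so low FPKM values carry no counting error here, and late-stage values under 1 FPKM give no order among genes.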
